A study of Homo sapiens with 4 samples.

Results

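The collagen genes encode the chains of the most abundant proteins of the extracellular matrix. Their 44 rows were taken from a table of 57905 gene identifiers as every symbol made of COL, a type number, A and a chain number. By the kind of assembly the chains form, 11 were fibrillar collagens, 6 were the type IV chains of basement membranes and 27 belonged to other types. The comparison asked how the RNA levels of these chains differ when KLF11, a DNA-binding repressor and activator with Krüppel-like zinc fingers, is lowered in cells labelled as an osteosarcoma line.

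Messenger RNA was sequenced from cells whose label is MG63, the name of an established line from a human osteosarcoma. The siKLF11 group held 2 libraries of cells transfected with an siRNA against KLF11, and the siNC group held 2 libraries of cells transfected with a control siRNA. Both groups were harvested 48 hours after transfection, and both were grown in the same medium. The labels do not say how many siRNA sequences were used, or whether each library had its own culture. The p-values therefore speak of library-to-library spread alone, and that spread may be technical.

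Collagen chains wind around each other into rods that are assembled from identical or different chains. Fibrillar collagens of types I, II, III, V, XI, XXIV and XXVII pack into the cable-like fibrils of bone, tendon and cartilage. Type IV collagen forms the sheet-like network under epithelia and around vessels, type VI forms beaded microfibrils, and the fibril-associated types decorate the surface of fibrils. Osteoblasts are known for making type I collagen as the main protein of bone matrix.

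Levels are given as FPKM, fragments scaled to gene length and library size, which allows comparison between genes. KLF11 itself stood at 5.49 and 6.74 FPKM in siKLF11 and at 12.3 and 12.4 FPKM in siNC libraries, in replicate order as throughout. Its log2 change was -0.92 (SE 0.14, adjusted p = 0.00951, limma). Across all 15320 tested genes, 2071 were higher (13.5%) and 3329 lower (21.7%) in siKLF11 at an adjusted p under 0.05. Median-of-ratios scaling turned that split into 2757 higher and 2605 lower and moved the median log2 change over the tested genes to 0.00, against -0.11 in the values as deposited. At the lowest values, the worth of 1 fragment was estimated relative to siNC replicate 1. It was 0.915 and 0.998 in siKLF11 replicates 1 and 2 and 0.944 in siNC replicate 2. The search covered only values near 1, so a large difference in depth could not have appeared, and no read counts are given.

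The label was set beside marker genes. Of 15 osteoblast and mesenchymal markers, among them COL1A1, COL1A2, COL3A1 and COL6A3, 10 reached a mean of 1 FPKM. All 15 together summed to 1914 and 1900.0 FPKM in siKLF11 and 1081 and 1029 FPKM in siNC libraries. Most of that sum was VIM and SPARC. VIM was at 808 and 800 FPKM in siKLF11 and 144 and 131 FPKM in siNC libraries. SPARC, which did not pass, was at 716 and 772 FPKM in siKLF11 and 657 and 637 FPKM in siNC libraries. The osteoblast regulator RUNX2 was at 0.60 and 0.65 FPKM in siKLF11 and 0.03 and 0.02 FPKM in siNC libraries. SP7, which acts after it, was listed at 0 in both siKLF11 libraries and at 0.04 and 0 FPKM in siNC libraries. The defining bone transcription factors were thus near 0 in every library. POU5F1, a factor of pluripotent cells, measured 1364 and 1068 FPKM in siKLF11 and 186 and 177 FPKM in siNC libraries, and 8 of 8 early endoderm markers were above the filter, with SOX17 at 19.2 and 47.9 against 133 and 131 FPKM. The libraries are therefore called by their siRNA below, and no cell type is read from their collagens.

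Genes with a mean of at least 1 FPKM over the 4 libraries were tested with limma on log2(FPKM + 1). That left 30 of the 44 collagen genes, of which 6 were higher and 10 lower in siKLF11, against the 13.5% and 21.7% of all tested genes, and 14 did not pass. Both siKLF11 libraries lay above both siNC libraries for 7 tested members and below them for 18, where 28.9% and 44.5% of all tested genes did so. The median log2 change of the tested members was -0.47. With a log2 change of at least 1 required as well, 3 were higher and 5 lower, where 4.67% and 8.26% of all tested genes were. Of the 30, COL8A1 and COL12A1 passed the filter only through their siKLF11 level and COL14A1, COL16A1, COL21A1 and COL25A1 only through their siNC level, so that the counts over tested members are a description. With siNC replicate 1 or siNC replicate 2 left out, where the spread comes from the siKLF11 pair alone, limma made 0 calls among all genes, with 16 and 18 collagen genes and 4461 and 4793 of all genes at an unadjusted p under 0.05.

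**Figure D1:**
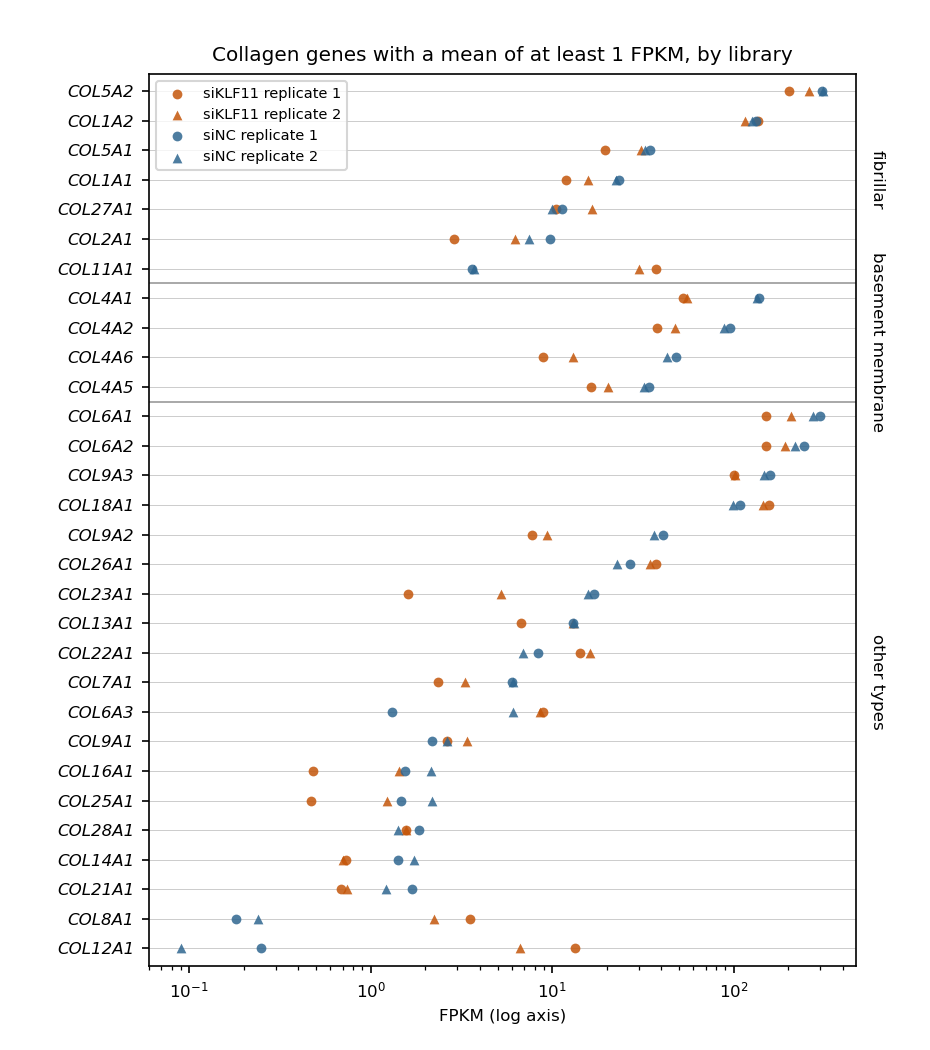
FPKM on a log axis of the 30 tested collagen genes in each library, ordered within class by their siNC level. The type IV genes are among 18 with every siKLF11 point to the left of every siNC point. COL11A1, COL8A1 and COL12A1 are among 7 that lie apart in the other direction. Of all tested genes, 44.5% and 28.9% lie apart in these directions.

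Type IV collagen showed the same direction in each tested chain, where 21.7% of all tested genes were called lower. COL4A1 and COL4A2, which join into the most widespread basement membrane network, fell together. COL4A1 measured 52.5 and 55.3 FPKM in siKLF11 and 138 and 134 FPKM in siNC libraries, a 2.52-fold lower mean (log2 change -1.32, SE 0.08, adjusted p = 0.00235). COL4A2 measured 37.9 and 47.2 FPKM in siKLF11 and 95.6 and 88.3 FPKM in siNC libraries, a 2.16-fold lower mean (log2 change -1.10, SE 0.13, adjusted p = 0.00559). In both genes the gap between groups was several times the gap within them.

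The X-linked chains COL4A5 and COL4A6, which form a network found in kidney, skin and smooth muscle, fell as well. COL4A5 was at 16.5 and 20.4 FPKM in siKLF11 and 34.2 and 32.0 FPKM in siNC libraries (log2 change -0.82, SE 0.13, adjusted p = 0.0106). COL4A6 was at 8.85 and 13.1 FPKM in siKLF11 and 47.8 and 42.9 FPKM in siNC libraries, a 4.14-fold lower mean (log2 change -1.97, SE 0.19, adjusted p = 0.00418). COL4A6 was thus the more abundant of the X-linked chains in siNC and the less abundant in siKLF11 libraries. The remaining chains, COL4A3 and COL4A4 of the kidney glomerulus, were below the filter at 0.01 to 0.15 FPKM in siKLF11 and 0.17 to 0.45 FPKM in siNC libraries. The 4 calls were kept in each of the 9 alternative fits to all libraries, and the COL4A5 change was under 1 on the log2 scale.

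The type IV genes lie in head-to-head pairs. Their start regions are shown because both genes of each tested pair fell, though by unlike amounts in the X-linked pair. In RefSeq's GRCh38.p14 windows of 300 bases, the starts of COL4A1 and COL4A2 are 127 bases apart and the windows share 226 bases, so that only the COL4A2 window is printed (chr13:110307034-110307333, plus strand). The starts of COL4A6 and COL4A5 are 380 bases apart with 121 shared bases, and the COL4A6 window is printed (chrX:108439409-108439708, minus strand), of 2 listed for that gene. Windows for COL11A1 (chr1:103108473-103108772, minus strand) and COL12A1 (chr6:75206004-75206303, minus strand), both called higher, stand beside them. Capitals mark GGGCGG or CCGCCC, the GC box read by Krüppel-like and SP factors, and GGAATG or CATTCC, the core read by TEAD factors, searched on both strands with no overlap between the motifs.

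COL4A2: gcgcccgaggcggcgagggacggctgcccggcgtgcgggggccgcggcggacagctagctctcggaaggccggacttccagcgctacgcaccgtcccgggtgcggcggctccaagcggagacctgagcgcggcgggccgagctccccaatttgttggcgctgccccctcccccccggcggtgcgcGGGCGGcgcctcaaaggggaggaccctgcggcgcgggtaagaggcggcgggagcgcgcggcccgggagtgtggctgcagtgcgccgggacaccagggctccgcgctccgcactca
COL4A6: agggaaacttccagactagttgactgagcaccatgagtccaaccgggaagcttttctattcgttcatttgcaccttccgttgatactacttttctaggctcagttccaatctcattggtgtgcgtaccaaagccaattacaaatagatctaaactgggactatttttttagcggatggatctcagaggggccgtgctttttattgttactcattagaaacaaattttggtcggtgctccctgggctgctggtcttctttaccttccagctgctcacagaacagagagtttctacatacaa
COL11A1: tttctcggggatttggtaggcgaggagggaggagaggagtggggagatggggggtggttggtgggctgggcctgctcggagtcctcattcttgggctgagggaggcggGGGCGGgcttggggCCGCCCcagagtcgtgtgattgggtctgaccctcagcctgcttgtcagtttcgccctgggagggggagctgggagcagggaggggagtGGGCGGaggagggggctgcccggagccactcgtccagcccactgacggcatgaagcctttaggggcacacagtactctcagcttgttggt
COL12A1: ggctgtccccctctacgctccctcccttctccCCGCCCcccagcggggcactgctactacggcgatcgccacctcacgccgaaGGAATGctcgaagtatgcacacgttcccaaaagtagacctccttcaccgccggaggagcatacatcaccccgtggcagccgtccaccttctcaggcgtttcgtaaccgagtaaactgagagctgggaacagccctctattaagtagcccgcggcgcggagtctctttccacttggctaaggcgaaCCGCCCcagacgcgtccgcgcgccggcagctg

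The COL4A2 window holds 1 GC box and the COL4A1 window 2, while the COL4A5 window and the printed COL4A6 window hold 0 of either motif, and the other COL4A6 window holds 1 GC box. The COL11A1 window holds 3 GC boxes, and the COL12A1 window holds 2 together with 1 TEAD core. At least 1 GC box was found in 24 of 44 windows of 32 collagen genes and in 45% of all 35116 windows. A TEAD core was found in 3 of the 44 and in 14% of all windows. The other members had no window, among them the called COL1A1, COL6A1, COL8A1, COL9A3 and COL22A1. Windows with and without a GC box occurred among fallen members (COL4A1, COL4A5) and among risen members (COL11A1, COL26A1). A link between these motifs and the changes was not tested. A match is a string of letters in the reference, and no binding was measured here.

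Markers of other cell types differed beside the type IV chains, and their counts stand against 13.5% higher and 21.7% lower among all tested genes. Of 8 early endoderm markers, GATA4, FOXA2, SOX17 and GATA6 fell, EOMES rose, and CER1, GSC and CXCR4 did not pass. Their summed level was 1305 and 3049.8 FPKM in siKLF11 and 5148 and 5114 FPKM in siNC libraries. Most of that sum was CER1 alone, at 958 and 2574 FPKM in siKLF11 and 4430.3 and 4406 FPKM in siNC libraries (adjusted p = 0.0543). Of 9 epithelial markers 8 fell and 0 rose, with sums of 1188 and 1432 FPKM in siKLF11 and 2584 and 2388 FPKM in siNC libraries. CLDN3, 1 of the 8, had entered the test only through its siNC level. The part of either marker list in the type IV result was not tested. In bulk RNA fewer cells of a type cannot be told apart from less RNA per cell. Among 8 other basement membrane genes 1 rose and 3 fell. The laminin chain LAMA1 fell to 14.8 and 16.0 FPKM in siKLF11, against 72.1 and 65.9 FPKM in siNC libraries (adjusted p = 0.00136), and the perlecan gene HSPG2 to 11.3 and 15.2, against 29.2 and 21.7 FPKM (adjusted p = 0.0246). NID2, a nidogen that links laminin to type IV collagen, rose to 4.22 and 3.40 FPKM in siKLF11, against 1.11 and 0.60 FPKM in siNC libraries (adjusted p = 0.0112), and had entered the test only through its siKLF11 level. LAMB1 and LAMC1, the laminin chains that pair with LAMA1, did not pass.

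The 2 called fibrillar collagens moved in opposite directions. Of 11 genes 7 were tested, and COL11A1 rose, COL1A1 fell and 5 did not pass. Among all tested genes 13.5% rose and 21.7% fell. The median log2 change of the 7 was -0.42. Both siKLF11 libraries lay below both siNC libraries for 4 of them and above for 1, where 44.5% and 28.9% of all tested genes did so. COL11A1 encodes a minor fibril chain known for limiting fibril width in cartilage. It was at 37.1 and 30.0 FPKM in siKLF11 and 3.60 and 3.70 FPKM in siNC libraries, a ratio of means of 9.20 (log2 change 2.89, SE 0.14, adjusted p = 0.00137). The siKLF11 libraries lay far above both siNC libraries, and the call was kept in the 9 alternative fits to all libraries.

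The chains of type I collagen parted. COL1A1 was at 11.9 and 15.8 FPKM in siKLF11 and 23.3 and 22.3 FPKM in siNC libraries (log2 change -0.70, SE 0.15, adjusted p = 0.0234), a call lost with no filter on low genes (adjusted p = 0.0816). COL1A2 was at 136 and 115 FPKM in siKLF11 and 133 and 126 FPKM in siNC libraries (log2 change -0.047, SE 0.11, adjusted p = 0.759), so its groups overlapped. The usual type I molecule holds more of the first chain than of the second, whereas here the COL1A1 level was 0.0870 and 0.137 of the COL1A2 level in siKLF11 and 0.175 and 0.177 of it in siNC libraries. These ratios did not overlap between groups, but with 2 libraries a group the smallest two-sided p of an exact permutation test is 0.333.

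COL5A2, the most abundant collagen transcript in each library, encodes a chain that starts and regulates type I fibrils. It was at 203 and 261 FPKM in siKLF11 and 306 and 312 FPKM in siNC libraries (log2 change -0.42, SE 0.14, adjusted p = 0.0623). Its partner COL5A1 was at 19.6 and 30.9 FPKM in siKLF11 and 34.6 and 32.5 FPKM in siNC libraries (adjusted p = 0.175). Neither passed, although both siKLF11 libraries were below both siNC libraries in each gene. COL5A2 did pass with TPM scaling (adjusted p = 0.0421), quantile normalization (adjusted p = 0.0491) and the replicate number as a block (adjusted p = 0.0494).

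COL2A1, the main fibril chain of cartilage, was at 2.86 and 6.27 FPKM in siKLF11 and 9.68 and 7.41 FPKM in siNC libraries (log2 change -0.84, adjusted p = 0.101). COL27A1, a fibrillar chain of cartilage, was at 10.5 and 16.5 FPKM in siKLF11 and 11.4 and 9.97 FPKM in siNC libraries (adjusted p = 0.363). Neither passed, and the siKLF11 libraries of both differed more from each other than the siNC libraries did. COL3A1, a chain of soft tissue fibrils and of fibroblasts, was below the filter, at 1.40 and 0.95 FPKM in siKLF11 and at 0.01 FPKM and listed at 0 in siNC libraries. Fitted with no filter, its log2 change was 1.11 (adjusted p = 0.0442). COL5A3, COL11A2 and COL24A1 were at 0.52 FPKM or less in every library.

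**Figure D2:**
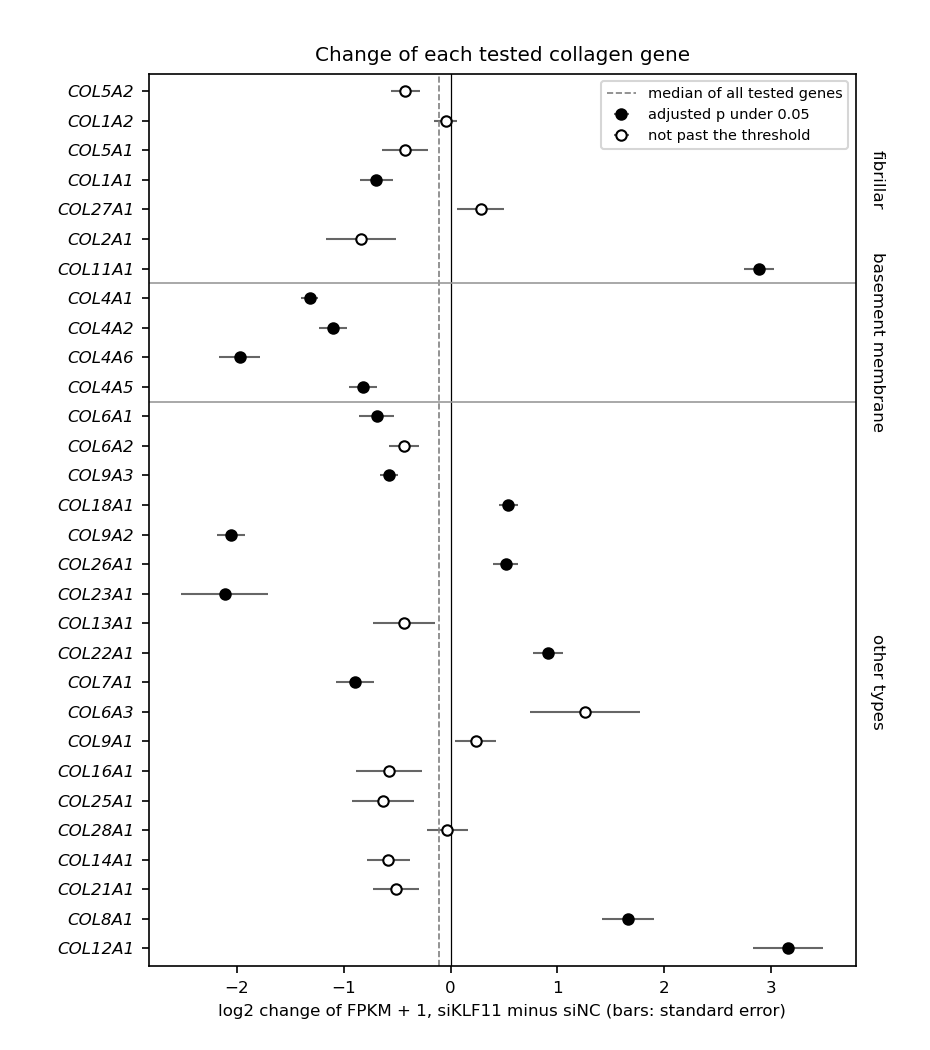
Fitted log2 change of FPKM + 1, siKLF11 minus siNC, with its standard error for each tested collagen gene, where filled points passed an adjusted p of 0.05. All 4 type IV genes are filled and left of 0, and the points of COL11A1, COL8A1 and COL12A1 lie between 1.66 and 3.16.

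Type VI collagen is assembled from COL6A1, COL6A2 and one more chain, usually COL6A3. COL6A1 was at 152 and 207 FPKM in siKLF11 and 300.3 and 272 FPKM in siNC libraries (log2 change -0.69, SE 0.16, adjusted p = 0.0285). Its call was lost with no filter (adjusted p = 0.105) and without a variance trend (adjusted p = 0.0527). COL6A2 was at 151 and 191 FPKM in siKLF11 and 244 and 218 FPKM in siNC libraries (log2 change -0.44, SE 0.14, adjusted p = 0.0612) and passed with TPM scaling (adjusted p = 0.043) and quantile normalization (adjusted p = 0.0427). Both genes, which are neighbours in RefSeq, thus had siKLF11 libraries below both siNC libraries, and COL6A1 alone passed.

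COL6A3 stood at far lower levels, with 8.88 and 8.52 FPKM in siKLF11 and 1.31 and 6.12 FPKM in siNC libraries (log2 change 1.26, SE 0.52, adjusted p = 0.115). Its siNC libraries differed more from each other than siNC replicate 2 did from either siKLF11 library. Without siNC replicate 1 its log2 change was 0.45, and without siNC replicate 2 it was 2.07. COL6A5 and COL6A6, alternatives to COL6A3, were at most 0.21 FPKM in any library. COL28A1, a related beaded filament chain, was at 1.57 and 1.56 FPKM in siKLF11 and 1.84 and 1.42 FPKM in siNC libraries and did not pass.

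Among fibril-associated collagens 8 of 10 genes were tested, of which COL12A1 and COL22A1 rose and COL9A2 and COL9A3 fell. Of all tested genes 13.5% rose and 21.7% fell, and COL12A1 had entered the test only through its siKLF11 level. COL12A1, which coats type I fibrils in tendon and ligament, was at 13.3 and 6.62 FPKM in siKLF11 and 0.25 and 0.09 FPKM in siNC libraries (log2 change 3.16, SE 0.33, adjusted p = 0.00476). Its siNC level is near the lower end of the table, and its fold is therefore given only on the log2(FPKM + 1) scale, which understates the change of low genes. With a pseudocount of 0.1 that change was 5.20 and with 5 it was 1.496. COL22A1, found at the junction of muscle and tendon, was at 14.3 and 16.2 FPKM in siKLF11 and 8.40 and 6.87 FPKM in siNC libraries (log2 change 0.91, SE 0.14, adjusted p = 0.0105). Both genes kept their calls in the 9 alternative fits to all libraries, though the COL22A1 change was under 1 on the log2 scale.

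The chains of type IX collagen, which is bound to cartilage fibrils, did not move alike. COL9A2 was at 7.70 and 9.40 FPKM in siKLF11 and 40.9 and 36.2 FPKM in siNC libraries, a 4.51-fold lower mean (log2 change -2.05, SE 0.13, adjusted p = 0.00237). COL9A3 was at 101 and 102 FPKM in siKLF11 and 158 and 146 FPKM in siNC libraries (log2 change -0.58, SE 0.08, adjusted p = 0.00842). COL9A1 was at 2.62 and 3.39 FPKM in siKLF11 and 2.17 and 2.62 FPKM in siNC libraries and did not pass (adjusted p = 0.375). COL9A3 was thus far above its partner chains in every library, and an antisense neighbour, TCFL5, overlaps its exons in GENCODE 29 with a mean of 6.77 FPKM. COL14A1, COL16A1 and COL21A1 ranged from 0.48 to 1.44 FPKM in siKLF11 and from 1.22 to 2.16 FPKM in siNC libraries, and none passed, although COL14A1 did without a variance trend (adjusted p = 0.0297). COL19A1 was at 0.02 and 0.10 FPKM in siKLF11 and 1.77 and 1.21 FPKM in siNC libraries, below the filter, and with no filter its log2 change was -1.22 (adjusted p = 0.0465). Exons of COL19A1 overlap those of LMBRD1, a gene on the other strand at 18.9 FPKM, and the strand setting is unknown. COL20A1 was at 0.12 FPKM or less.

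Secreted collagens of other assemblies supplied 3 of the 6 rises. COL8A1, a short chain made by vessel walls and the eye, was at 3.53 and 2.23 FPKM in siKLF11 and 0.18 and 0.24 FPKM in siNC libraries (log2 change 1.66, SE 0.24, adjusted p = 0.00888). The size of that change rested on the pseudocount, being 3.24 with 0.1 and 0.59 with 5 added to the FPKM, and the call was kept with both. COL18A1, the precursor of endostatin in basement membrane zones, was at 156 and 146 FPKM in siKLF11 and 108 and 99.0 FPKM in siNC libraries, a ratio of means of 1.46 (log2 change 0.54, SE 0.09, adjusted p = 0.012). COL26A1 was at 37.3 and 34.5 FPKM in siKLF11 and 27.0 and 22.8 FPKM in siNC libraries (log2 change 0.52, SE 0.12, adjusted p = 0.0255). COL18A1 thus rose while the type IV chains, found in the same sheets, fell. The COL26A1 call was lost with no filter (adjusted p = 0.0785) and without siKLF11 replicate 1 (adjusted p = 0.0798). SLC19A1, on the other strand at 13.0 FPKM, overlaps exons of COL18A1 in GENCODE 29.

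Falls were seen in COL7A1 and COL23A1. COL7A1, the anchoring fibril chain that ties basement membranes to the tissue below, was at 2.34 and 3.29 FPKM in siKLF11 and 5.98 and 6.07 FPKM in siNC libraries (log2 change -0.89, SE 0.18, adjusted p = 0.019). COL23A1, a transmembrane collagen, was at 1.60 and 5.23 FPKM in siKLF11 and 17.1 and 15.8 FPKM in siNC libraries (log2 change -2.11, SE 0.41, adjusted p = 0.0171). Their siKLF11 libraries were below both siNC libraries, and both calls were lost with no filter (adjusted p = 0.0701 and 0.0788). With a pseudocount of 5 the log2 changes were -0.50 for COL7A1 and -1.38 for COL23A1. The transmembrane COL13A1 was at 6.70 and 13.1 FPKM in siKLF11 and 13.1 and 13.1 FPKM in siNC libraries, so that siKLF11 replicate 1 alone stood apart, and it did not pass (adjusted p = 0.284). COL25A1, a transmembrane chain of neurons, was at 0.47 and 1.23 FPKM in siKLF11 and 1.47 and 2.19 FPKM in siNC libraries and did not pass either. COL8A2, COL10A1, COL15A1 and COL17A1 were below the filter, the highest value being 1.16 FPKM for COL17A1 in siKLF11 replicate 2.

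**Figure D3:**
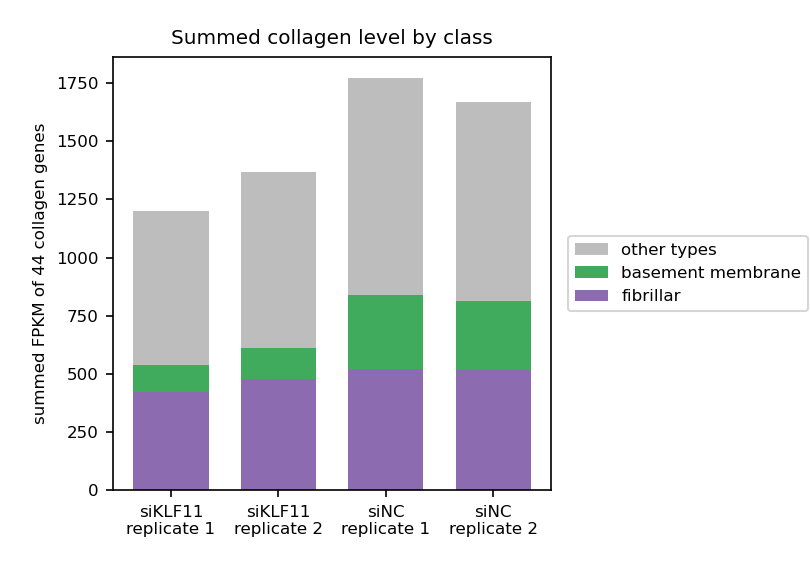
Summed FPKM of the 44 collagen genes in each library, stacked by class on a linear axis from 0. The bars of siKLF11 replicates 1 and 2 reach 1202 and 1368 FPKM and those of the siNC libraries 1774 and 1669 FPKM, of which type IV genes hold 116 and 136 FPKM in siKLF11 and 316 and 298 FPKM in siNC libraries.

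Summed over the 44 genes, the collagen level was 1202 and 1368 FPKM in siKLF11 and 1774 and 1669 FPKM in siNC libraries, and the ratio of the group means was 0.746. The sum was 0.203% and 0.226% of all FPKM in siKLF11 and 0.307% and 0.287% in siNC libraries. Type IV chains made up 9.63% and 9.96% of it in siKLF11 and 17.8% and 17.9% in siNC libraries. Fibrillar chains made up 35.2% and 34.9% in siKLF11 and 29.4% and 30.9% in siNC libraries, although their sum of 423 and 477 FPKM was below the 522 and 515 FPKM of the siNC libraries. The groups did not overlap in any of these values. The 5 highest genes held 66.4% and 67.2% of the sum in siKLF11 and 64.5% and 64.9% in siNC libraries. COL5A2, COL6A1 and COL6A2 were the 3 highest in 3 of the libraries, while COL18A1 came next after COL5A2 in siKLF11 replicate 1. COL4A1 held rank 7 in both siKLF11 libraries and rank 5 in both siNC libraries.

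**Figure D4:**
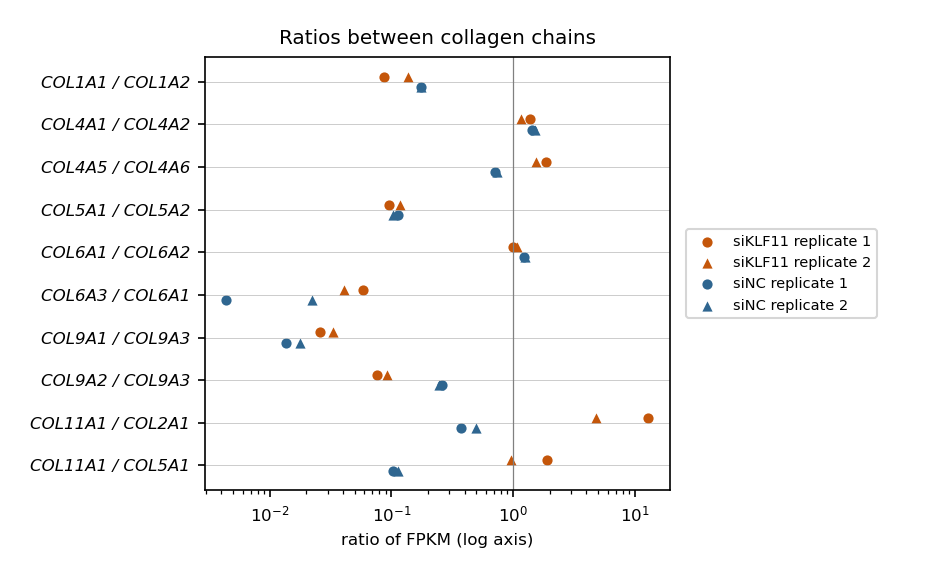
Ratios of FPKM between chains of the same or related collagens in each library, on a log axis with a line at 1. The COL4A5 to COL4A6 ratio lies above 1 in both siKLF11 libraries and below 1 in both siNC libraries, and the COL11A1 ratios are higher in siKLF11 libraries.

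Of 10 ratios between chains of the same or related collagens, COL5A1 to COL5A2 alone overlapped between groups. The pairs were picked by hand, some share a chain, and no share over other gene pairs was computed. Taken singly, 28.9% of all tested genes were apart with siKLF11 higher and 44.5% with siKLF11 lower. The count of ratios is therefore a description. COL4A1 was 1.39 and 1.17 times COL4A2 in siKLF11 and 1.44 and 1.52 times it in siNC libraries. COL4A5 was 1.86 and 1.56 times COL4A6 in siKLF11 and 0.715 and 0.746 times it in siNC libraries. The COL4A1 level thus stayed above that of COL4A2 in every library, and the X-linked pair changed order. COL5A1 was 0.0966 and 0.119 of COL5A2 in siKLF11 and 0.113 and 0.104 of it in siNC libraries. COL11A1, which can join COL5A1 in mixed fibrils, was 1.89 and 0.972 times COL5A1 in siKLF11 and 0.104 and 0.114 times it in siNC libraries. Against COL2A1, its partner in cartilage, COL11A1 was 13.0 and 4.79 times as abundant in siKLF11 and 0.372 and 0.499 times as abundant in siNC libraries. COL9A2 was 0.0762 and 0.0925 of COL9A3 in siKLF11 and 0.260 and 0.248 of it in siNC libraries, and COL6A1 was 1.00 and 1.08 times COL6A2 in siKLF11 and 1.23 and 1.25 times it in siNC libraries. For these ratios 2 libraries against 2 again allow no exact two-sided p below 0.333.

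The siKLF11 libraries differed in how far they stood from siNC. In 15 of the 16 called collagen genes siKLF11 replicate 1 lay farther from the siNC mean than replicate 2 did, COL22A1 being the exception, and in all called genes this held for 79.1%. KLF11 stood at 5.49 and 6.74 FPKM in siKLF11 replicates 1 and 2, and a link of its level to these distances was not tested. Fits without one siKLF11 library take their spread from the siNC pair alone, and the lone siKLF11 library is assumed to vary like that pair, so their calls are no separate results. With siKLF11 replicate 2 left out, the median log2 change was -0.60 over the tested collagen genes and -0.11 over all tested genes. With siKLF11 replicate 1 left out these medians were -0.26 and -0.10. With all libraries they were -0.47 and -0.11.

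The osteoblast and mesenchymal markers were mixed. Of 10 tested, VIM, THY1, CDH11 and TWIST1 rose, COL1A1 fell, and COL1A2, COL6A3, SPARC, MSX2 and ALPL did not pass, where 13.5% of all tested genes rose and 21.7% fell. CDH11, a mesenchymal cadherin, was at 34.9 and 23.4 FPKM in siKLF11 and 1.44 and 1.20 FPKM in siNC libraries. TWIST1, a factor of mesenchymal cells, was at 14.1 and 8.01 FPKM in siKLF11 and 1.08 and 0.79 FPKM in siNC libraries, where its mean was under the filter. ALPL, the alkaline phosphatase of mineralizing bone, was at 106 and 79.3 FPKM in siKLF11 and 101 and 89.0 FPKM in siNC libraries, so its groups overlapped. The list thus held members of each kind. Among those below the filter, PRRX1, a factor of limb and skeletal mesenchyme, was at 0.29 and 0.10 FPKM in siKLF11 and listed at 0 in both siNC libraries. BGLAP, which encodes the bone protein osteocalcin, was at 0.18 and 0.38 FPKM in siKLF11 and 1.39 and 0.77 FPKM in siNC libraries. Of 4 tested chondrocyte markers COL11A1 rose, MATN3 fell, and COL2A1 and COL9A1 did not pass. SOX9, the cartilage regulator, was below the filter at 1.62 and 1.45 FPKM in siKLF11 and 0.39 and 0.32 FPKM in siNC libraries, and ACAN was at most 0.27 FPKM. The 6 leukocyte markers summed to 0.66 FPKM or less in any library. Of 8 pluripotency markers POU5F1, SOX2, NANOG, DPPA4 and L1TD1 rose, SALL4 and LIN28A fell, and TDGF1 did not pass. They summed to 2884 and 2413 FPKM in siKLF11 and 1552 and 1554 FPKM in siNC libraries. POU5F1 alone held 1364 and 1068 FPKM of this in siKLF11 and 186 and 177 FPKM in siNC libraries. Of 6 tested endothelial and mural markers FLT1, MCAM and TEK rose, VWF fell, and RGS5 and KDR did not pass. VWF was at 0.35 and 2.86 FPKM in siKLF11 and 12.5 and 10.7 FPKM in siNC libraries. TEK, 1 of the rises, was at 8.62 and 4.97 FPKM in siKLF11 and 0.56 and 0.70 FPKM in siNC libraries. It had entered the test only through its siKLF11 level. The list summed to 261 and 151 FPKM in siKLF11 and 136 and 121 FPKM in siNC libraries. RGS5, a pericyte gene that did not pass, held 156 and 68.7 FPKM of that sum in siKLF11 and 97.2 and 85.3 FPKM in siNC libraries. The part of other cell types in the collagen changes was not tested.

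The genes that fold, process, bind and degrade collagen were a list of 63, of which 45 were tested, with 8 higher and 8 lower, where 13.5% and 21.7% of all tested genes were. Their median log2 change was 0.02, against the -0.11 of all tested genes. Of 18 tested folding and modification genes 2 rose and 3 fell. FKBP14, a prolyl isomerase of the endoplasmic reticulum that acts on collagen, was at 84.4 and 50.9 FPKM in siKLF11 and 10.1 and 10.4 FPKM in siNC libraries (log2 change 2.56, adjusted p = 0.0039). P3H2, a prolyl hydroxylase known for modifying type IV collagen, was at 96.6 and 153 FPKM in siKLF11 and 272 and 274 FPKM in siNC libraries (log2 change -1.16, adjusted p = 0.0158). The catalytic subunits of the main prolyl hydroxylase parted. P4HA1 rose to 53.4 and 55.0 FPKM in siKLF11, against 37.3 and 41.3 FPKM in siNC libraries (adjusted p = 0.0194). P4HA2 fell to 3.65 and 6.79 FPKM in siKLF11, against 10.98 and 11.22 FPKM in siNC libraries (adjusted p = 0.0353). The collagen chaperone SERPINH1 was at 410.4 and 367 FPKM in siKLF11 and 384 and 372 FPKM in siNC libraries and did not pass (adjusted p = 0.766).

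Of 9 tested processing and cross-linking genes 1 rose and 2 fell. This count and those of receptors and proteases below stand against 13.5% higher and 21.7% lower among all tested genes. The enhancers of procollagen cleavage fell, PCOLCE2 to 5.86 and 4.80 FPKM in siKLF11, against 12.2 and 13.1 FPKM in siNC libraries (adjusted p = 0.0065), and PCOLCE to 7.87 and 9.81, against 14.8 and 13.0 FPKM (adjusted p = 0.0319). LOXL2, a cross-linking oxidase, rose by 1.64 on the log2 scale (adjusted p = 0.00347). Of 4 tested receptors ITGB1 and ITGA1, which pair into a collagen-binding integrin, rose, ITGB1 to 373 and 365 FPKM in siKLF11, against 170.4 and 199 FPKM in siNC libraries, and ITGA1 to 2.08 and 2.40, against 0.90 and 1.04 FPKM. ITGA1 had entered the test only through its siKLF11 level. MRC2, a receptor that takes up collagen, did not pass (adjusted p = 0.0971). Of 4 tested proteases MMP2 and MMP9, gelatinases that also cut type IV collagen, rose, and MMP14 and CTSK did not pass. MMP9, at 1.41 and 2.36 FPKM in siKLF11 and 0.45 and 0.35 FPKM in siNC libraries, had also entered only through its siKLF11 level. Among fibril-associated proteins only FN1 and SPARC reached the filter, and neither passed.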

How the data were processed

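Polyadenylated RNA of 4 libraries, 2 per group, was sequenced. The authors deposited FPKM values with 2 decimals for 57905 identifiers, made, per the submitters' processing notes, with Trim Galore 0.5.0, RSEM 1.3.1 and build hg19. The sources used here give no aligner, annotation release or strand setting. FPKM hides read depth, and RSEM splits reads between similar genes. Columns were matched to samples by name.

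The test was that of limma 3.58.1, run in R 4.3.3 on log2(FPKM + 1) with a mean FPKM of at least 1. It took siKLF11 minus siNC with a variance trend, Benjamini-Hochberg adjustment over 15320 identifiers and a threshold of 0.05. The fit was also run on simulated data with independent noise and far fewer changed genes than were called here. That run does not vouch for these calls. Folds are ratios of mean FPKM. Alternatives were other scalings, pseudocounts, filters, eBayes without a trend, a replicate block and each library left out. Replicates correlated at 0.976 and 0.982 and were kept apart. All 44 members are given, with partners of smallest p in each list. Members and lists were chosen with earlier results of these data known. Promoter windows come from RefSeq (GRCh38.p14) and exon overlaps from GENCODE 29, a build other than that of the table. Figures were drawn with matplotlib 3.10.9.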

Additional observations from a re-analysis of the deposited data

How the results depend on the processing

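Of the collagen calls, the 10 lower and 6 higher genes became 7 to 12 and 5 to 6 over alternative scalings, pseudocounts, filters, variance settings and the block, and a minimum log2 change of 1 left 5 lower and 3 higher. With 1 library left out, which leaves an arm of 1 library assumed to vary like the other arm, the lower count ran from 0 to 17, the higher count from 0 to 6, and all genes from 0 to 3813 lower and 0 to 2291 higher. For all genes, no filter gave 887 higher and 1251 lower, and the minimum change 716 and 1265. Partner genes, 8 higher and 8 lower, gave 4 and 2 with no filter, 5 higher with a filter of mean FPKM 5, 5 lower without a trend, 5 higher and 4 lower at the minimum change, and 0 to 8 higher and 0 to 15 lower with 1 library left out. The summed collagen ratio was 0.817 with median-of-ratios scaling. Signs turned for genes that had not passed: COL1A2 to 0.083 with median-of-ratios scaling and COL28A1 to 0.050 there and 0.16 with quantile normalization. With a library left out COL1A2 ran from -0.17 to 0.073, COL27A1 from -0.023 to 0.59 and COL28A1 from -0.15 to 0.084. The cause was not tested.

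With the replicate number as a block 6 collagen genes were higher and 11 lower, 16 of them shared with the fit without it, and 5 partner genes were lower. Differences between replicates 1 and 2 correlated at -0.07 between groups across genes, so the numbers are not taken to pair the libraries. Without read counts, levels near the table's last decimal cannot be given an interval.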

Other observations

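Genes that carry a collagen name without being counted as chains also differed. COL6A4P2, a pseudogene of a type VI chain, was at 1.19 and 4.83 FPKM in siKLF11 and 10.2 and 9.06 FPKM in siNC libraries (log2 change -1.57, adjusted p = 0.0495, limma), and it was lower in 2 of 2 siKLF11 libraries. COL4A3BP, which encodes a ceramide transfer protein and no collagen chain, was at 16.6 and 16.2 FPKM in siKLF11 and 26.3 and 26.3 FPKM in siNC libraries (log2 change -0.65, adjusted p = 0.00822, limma). Both were picked once their values were known.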
